A study of Homo sapiens with 8 samples.

Results

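Protein tyrosine phosphatases of the PTPN and PTPR families and dual-specificity phosphatases of the DUSP family were examined for binding of HA-tagged RUNX1 in HEL cells. The members are the protein-coding genes of the human build hg38 whose symbol is PTPN or DUSP followed by a number, or PTPR followed by letters and an optional number. A final letter after the number was accepted, which brings in DUSP13A and DUSP13B, a pair of overlapping genes. By this rule 63 of 20033 protein-coding genes are members. They comprise 17 non-receptor tyrosine phosphatases (PTPN), 20 receptor tyrosine phosphatases (PTPR), 10 MAP kinase phosphatases of the DUSP family, 15 atypical DUSP genes and PTPRCAP. PTPRCAP fits the rule by its symbol but encodes a protein associated with the receptor phosphatase CD45 and not a phosphatase.

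Binding was measured by CUT&RUN, in which an antibody guides a nuclease to its target in permeabilized cells and the freed fragments are sequenced. HEL is an erythroleukemia cell line that carries erythroid as well as megakaryocytic traits. The libraries analysed came from HEL cells transduced with RUNX1-4D, RUNX1-4A or wild-type (WT) RUNX1, each with an HA tag, and an anti-HA antibody was used throughout. Cells carrying an empty vector served the authors as background for peak calling. There were 2 biological replicates of each of the 4 lines, and peak lists for the 6 libraries of 4D, 4A and WT were analysed here. All lines were kept in 2 µg/ml puromycin, and each sample had 500000 cells, permeabilized with 0.01% digitonin, and a library amplified for 12 PCR cycles. In the usual naming of such mutants 4D stands for aspartate and 4A for alanine in place of phosphorylated residues, and the labels do not list the residues. The promoter that drives the transgene and the number of clones in a line are not given in the sources used here. RUNX1 made by the HEL cells themselves is not read by the anti-HA antibody, and its part in the binding of the tagged forms was not measured. The study asks, by its title, about phosphorylation of RUNX1 on serine and threonine and the megakaryocytic fate. RNA was not measured, so neither the expression of the phosphatases nor markers of the cell line could be examined.

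Tyrosine phosphatases remove phosphate from tyrosine and oppose tyrosine kinases, and dual-specificity phosphatases also act on serine and threonine. The MAP kinase phosphatases among them switch off ERK, JNK and p38 and form feedback loops on these kinases. In megakaryocytes and platelets several members act at the receptors of collagen, thrombopoietin and fibrinogen. PTPRJ (CD148) activates SRC family kinases there, PTPN6 (SHP1) and PTPN11 (SHP2) are recruited to inhibitory receptors and signalling adaptors, and SHP2 has been described as a phosphatase of RUNX1 itself. RUNX1 binds DNA together with CBFB at the letters TGTGGT or TGCGGT.

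Promoter sequences are shown first because they hold or miss these letters under called regions. They are windows from 250 bases before to 50 bases after a listed gene start, 300 bases each, from the RefSeq table of GRCh38.p14. A table entry was found for 52 of the 63 members, with 78 windows. Capitals mark TGTGGT or TGCGGT, or their complements ACCACA or ACCGCA on the printed strand, and positions count from the listed start, with negative numbers before it. The first 4 lie under a region called in all 6 libraries, PTPN22 is shown for its 3 copies of the letters, and DUSP14 because its window lay under a region of both 4A libraries that WT replicate 1 and 4D replicate 1 lacked.
DUSP10, chr1:221742040-221742339, minus strand: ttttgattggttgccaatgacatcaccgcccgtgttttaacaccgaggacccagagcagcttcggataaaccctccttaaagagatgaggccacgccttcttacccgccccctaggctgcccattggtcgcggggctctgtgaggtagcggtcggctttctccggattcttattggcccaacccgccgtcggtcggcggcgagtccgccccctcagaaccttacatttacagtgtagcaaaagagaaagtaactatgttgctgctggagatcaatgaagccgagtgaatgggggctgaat
PTPN13, chr4:86594065-86594364, plus strand: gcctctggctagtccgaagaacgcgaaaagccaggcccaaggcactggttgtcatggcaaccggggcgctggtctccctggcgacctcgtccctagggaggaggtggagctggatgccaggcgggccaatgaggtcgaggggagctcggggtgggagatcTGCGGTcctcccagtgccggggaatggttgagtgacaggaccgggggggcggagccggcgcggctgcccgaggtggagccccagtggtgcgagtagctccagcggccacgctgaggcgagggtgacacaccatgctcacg
PTPN12, chr7:77537793-77538092, plus strand: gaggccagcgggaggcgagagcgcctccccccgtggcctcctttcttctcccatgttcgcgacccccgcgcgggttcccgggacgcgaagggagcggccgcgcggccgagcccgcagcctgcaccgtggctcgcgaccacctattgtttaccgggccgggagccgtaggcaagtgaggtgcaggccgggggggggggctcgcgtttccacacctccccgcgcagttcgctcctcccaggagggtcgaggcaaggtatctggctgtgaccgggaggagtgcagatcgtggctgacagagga
DUSP28, chr2:240560107-240560406, plus strand: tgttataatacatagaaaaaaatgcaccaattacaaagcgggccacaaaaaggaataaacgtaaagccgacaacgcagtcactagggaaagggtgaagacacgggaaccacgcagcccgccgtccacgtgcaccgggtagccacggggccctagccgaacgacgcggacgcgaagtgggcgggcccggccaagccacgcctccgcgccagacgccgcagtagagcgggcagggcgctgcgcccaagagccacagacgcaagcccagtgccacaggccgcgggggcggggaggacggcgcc
PTPN22, chr1:113871663-113871962, minus strand: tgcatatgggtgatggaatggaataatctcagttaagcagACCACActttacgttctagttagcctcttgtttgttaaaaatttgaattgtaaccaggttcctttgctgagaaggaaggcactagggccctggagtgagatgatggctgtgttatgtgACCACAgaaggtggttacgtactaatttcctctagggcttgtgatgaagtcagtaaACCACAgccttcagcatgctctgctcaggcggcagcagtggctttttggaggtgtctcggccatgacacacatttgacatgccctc
DUSP14, chr17:37489641-37489940, plus strand: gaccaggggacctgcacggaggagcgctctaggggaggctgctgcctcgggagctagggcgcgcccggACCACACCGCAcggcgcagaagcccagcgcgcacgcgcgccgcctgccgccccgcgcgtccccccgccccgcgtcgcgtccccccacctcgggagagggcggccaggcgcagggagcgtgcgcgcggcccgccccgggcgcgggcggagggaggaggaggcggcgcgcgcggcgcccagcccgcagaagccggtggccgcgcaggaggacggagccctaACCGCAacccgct

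Of the 4 windows under a region called in all 6 libraries, 1 held TGTGGT or TGCGGT on either strand, beside 527 of 1753 such windows over all genes (30.1%). It was PTPN13, with TGCGGT at −90. The DUSP10 window held the summit, the point of strongest signal, of all 6 libraries, at a median of −101 bases from the start, yet none of these letters. At PTPN12 no summit fell in the window and the median summit lay at −806 from the listed start. The DUSP28 window held the summits of 2 libraries and the PTPN13 window those of 3. PTPN22 carried ACCACA at −210, −92 and −36, and the summits of the 3 replicate 2 libraries fell in its window, while no replicate 1 list had a region there. DUSP14 carried ACCACA at −182, ACCGCA at −177, which overlaps it, and ACCGCA again at 37.

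Over all windows the letters were about as frequent at members as elsewhere. TGTGGT, searched on both strands, was in 10 of the 78 member windows (12.8%), against 11.3% of all 22198 windows of the table. TGTGGT or TGCGGT was in 13 (16.7%), against 19.0%, and the looser TGNGGT in 33 (42.3%), against 41.8%. A region lay over a promoter window of 5 members in both 4D libraries (among all genes with a listed window 11.9%), of 7 in both 4A libraries (12.9%), of 9 in both WT libraries (16.3%) and of 4 in all 6 libraries (8.87%). As shares of the 52 matched members these were 9.62%, 13.5%, 17.3% and 7.69%, near the background of each. A match of letters is a description of the window and not a binding site, and windows lacking them may lie in regions with copies outside the window.

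At gene ends the share of phosphatase genes called lay 4 to 8 percentage points above that of all protein-coding genes in the 3 lines, an untested difference that depended on the distance and on how a region was assigned to a gene. A region is a stretch where peaks of the 6 lists overlap by at least 1 base, the set of a line holds the regions that both of its replicates share, and a gene is called when such a region lies within 10 kb of either of its ends. In the 4D set 15 of 63 members were called, or 23.8%, against 19.7% of all protein-coding genes. The 4A set had 17 members, or 27.0%, against 22.0% of all genes. The WT set had 21 members, or 33.3%, against 25.7% of all genes. A region called in all 6 libraries lay at 13 members, or 20.6%, against 14.6% of all genes.

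Gene length was taken into account with 10 classes of equal gene number, since the members had a median length of 58.9 kb and all protein-coding genes one of 24.1 kb. Weighted to the length classes of the members, the share of all genes was 18.7% for 4D, 20.8% for 4A, 24.5% for WT and 13.7% for all 6 libraries. The members' share was thus 1.27, 1.30, 1.36 and 1.50 times that of genes of like length. No test of these ratios was made, and within 2 kb of an end the ratio was 0.996 for 4D, 1.24 for 4A and 1.08 for WT. Counting only the nearest gene, 11.1% of members had a region of all 6 libraries, against 9.61% of all genes.

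Replicate numbers differed more than lines did. Single libraries called 15 and 36 members in 4D, 17 and 38 in 4A and 21 and 37 in WT, each pair giving replicate 1 and replicate 2. Means per library were 25.5 ± 14.8 members in 4D, 27.5 ± 14.8 in 4A and 29.0 ± 11.3 in WT (SD, n = 2 each). The differences between these means were smaller than the SD, but the SD holds a shift toward replicate 2 that all lines share. It is therefore no measure of noise for comparing lines. Within replicate 1 the lines called 15, 17 and 21 members in 4D, 4A and WT. Their lists also lengthened in that order, with 5358, 6266 and 6764 peaks. Within replicate 2 they called 36, 38 and 37 members, so the order of the lines was not the same. In the whole series, replicate 1 lists had 5358 to 6764 peaks and replicate 2 lists had 21122 to 25911. Over all genes, 20.2% and 50.2% were called in the 4D libraries, 22.7% and 54.9% in the 4A libraries and 26.3% and 55.0% in the WT libraries. All members of each replicate 1 list were also called in replicate 2 of that line, so the set of a line is its replicate 1 list for these genes. With 2 libraries against 2, an exact 2-sided permutation test cannot go below p = 0.333, so no difference between lines was tested. Read depth is unknown, because peak lists hold no read totals, and a gene or region missing from a list may still be bound below what that library could detect.

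**Figure D1:**
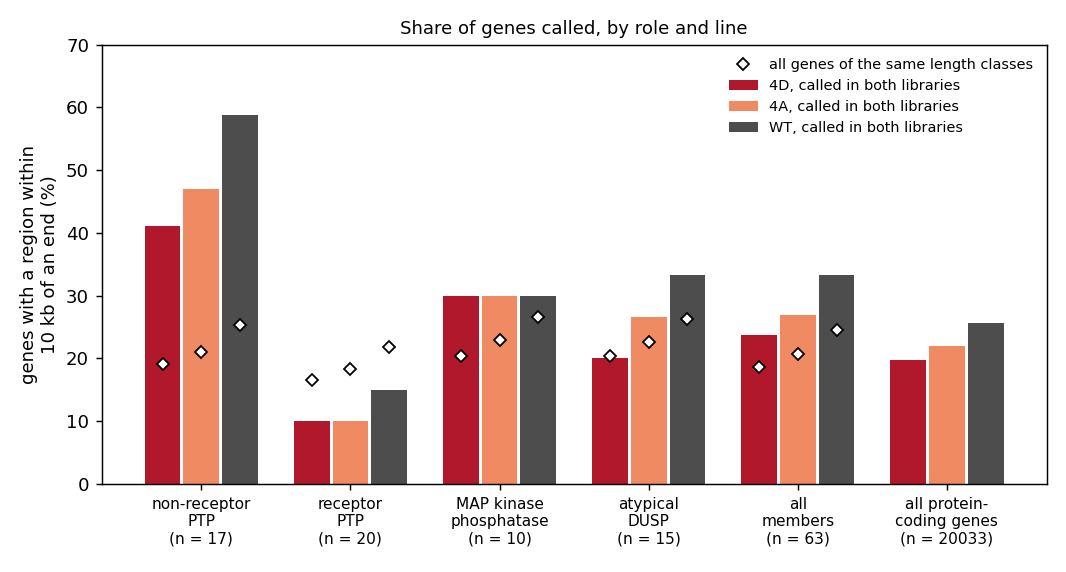
Share of genes, in percent, with a region called in both libraries of a line within 10 kb of a gene end, by role and line. Bars stand for 4D, 4A and WT from left to right, and diamonds give the share among all protein-coding genes of the same length classes. Non-receptor genes reach 41.2%, 47.1% and 58.8%, above their diamonds, and receptor genes 10.0%, 10.0% and 15.0%, below theirs.

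Among the roles, the non-receptor PTPN genes had the highest share of called genes. They numbered 7 of 17 in the 4D set, 8 in the 4A set and 10 in the WT set, or 41.2%, 47.1% and 58.8%, where genes of the same length classes gave 19.1%, 21.1% and 25.3%. A region of all 6 libraries lay at 7 of them, or 41.2%, against 13.9%. PTPN22, PTPN21 and PTPN9 were among these, and in the set of each line, only through regions with summits nearer to another gene. Shares by role were not computed for the nearest gene alone. Receptor genes were called less often, 2 of 20 in the 4D set, 2 in the 4A set and 3 in the WT set, where genes of the same length gave 16.6%, 18.2% and 21.9%. MAP kinase phosphatases numbered 3 of 10 in each set, where genes of the same length classes gave 20.4% in 4D, 22.9% in 4A and 26.6% in WT, and 2 with a region of all 6 libraries (15.5%). Atypical DUSP genes numbered 3, 4 and 5 of 15, where genes of the same length classes gave 20.4%, 22.7% and 26.3%, and 2 in all 6 libraries (15.3%). Both classes lay near their background. PTPRCAP was in no set and had 1 region, in the replicate 2 lists of all 3 lines. These classes hold few genes each, the shares were not tested, and a gain or loss of 2 genes moves each by 10 percentage points or more.

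**Figure D2:**
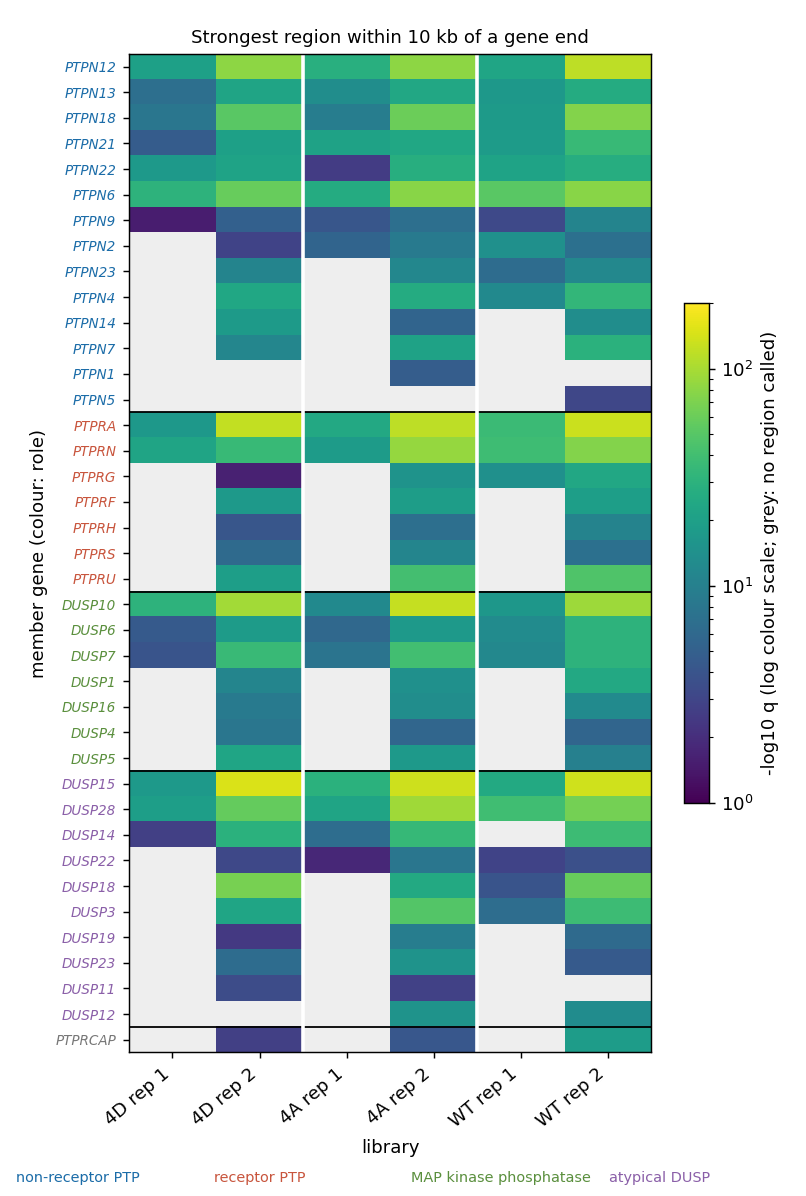
The −log10 q of the strongest region within 10 kb of an end of each of the 39 members with any such region, by library (columns, 4D, 4A and WT from left to right), on a log colour scale, with grey where no region was called. Members are grouped by role, PTPRCAP in the last row. The replicate 2 columns are filled for 36, 38 and 37 members, and the replicate 1 columns for 15, 17 and 21.

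The non-receptor genes with a region in all 6 libraries were PTPN12, PTPN13, PTPN18, PTPN6, PTPN21, PTPN22 and PTPN9. The scores given with them are the authors' −log10 q of the strongest peak of the region, replicate 1 and then replicate 2. Such scores grow with sequencing depth and are not compared between lists. Where a standing is given, it is the share of peaks of the same list with a lower score, and standings in lists of different length show no change in binding.

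PTPN12 (PTP-PEST), which acts on adhesion and cytoskeletal proteins, had a region over its start at chr7:77536595-77538936. It scored 20.2 and 81.6 in the 4D libraries, 28.3 and 81.1 in the 4A libraries and 22.4 and 119 in the WT libraries. In the 6 lists it stood above 79.6% to 98.8% of all peaks. It was the only region within 10 kb of an end of PTPN12 in any library.

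PTPN6 (SHP1), the inhibitory phosphatase of blood cells, had 3 regions called in all 6 libraries near its ends. The strongest, chr12:6953281-6954248, lay inside the gene, 6.70 kb from the first of its listed starts. Its summit lay 2456 bases after the second listed start. It scored 30.6 and 58.8 in 4D, 25.9 and 78.3 in 4A and 51.1 and 78.6 in WT, above 88.4% or more of the peaks of each list. The other two lay upstream, 552 bp apart, at chr12:6942422-6942938 and chr12:6943491-6944845. Their summits were nearer to ends of ATN1 and C12orf57 than to PTPN6. The farther one scored 5.79 and 8.69 in 4D, 15.5 and 49.9 in 4A and 11.0 and 45.7 in WT. It stood above 36.8% and 43.6% of the peaks of the 4D lists, 73.8% and 91.5% in 4A and 52.1% and 90.2% in WT. The nearer one scored 10.5 and 9.62 in 4D, 6.64 and 24.0 in 4A and 12.5 and 31.6 in WT. Its standings were 63.4% and 47.5% in 4D, 38.6% and 77.3% in 4A and 57.4% and 83.4% in WT. The order of the lines differed between the replicate numbers.

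PTPN18, a phosphatase of the PEST group, had 4 regions. The one called in all 6 libraries, chr2:130371773-130372949, lay in the gene 2.46 kb from its 3′ end and scored 8.0 and 39.3 in 4D, 9.53 and 60.6 in 4A and 18.0 and 74.3 in WT. A region over its start, chr2:130355405-130356508, was in 5 libraries, with scores of 5.85 and 51.1 in 4D, 30.7 in 4A replicate 2 and 4.58 and 36.9 in WT. Only 4A replicate 1 lacked it. PTPN13, a large phosphatase with PDZ domains, had its region over the start at chr4:86594051-86595193, the window with TGCGGT printed above, with scores of 6.90 and 22.1 in 4D, 13.5 and 24.0 in 4A and 16.9 and 26.0 in WT. It stood above 44.3% and 75.5% of the peaks of the 4D lists, 68.9% and 77.3% in 4A and 69.6% and 78.7% in WT. Within each replicate number 4D stood lowest and WT highest, in lists of different length, and this order was not tested.

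The regions that brought in PTPN22, PTPN21 and PTPN9 had summits nearer to another gene. PTPN22 (LYP), which restrains antigen receptor signalling in lymphocytes, was called through chr1:113811886-113812641, 1.17 kb beyond its 3′ end, where the summit lay 0.065 kb from an end of RSBN1. It scored 17.7 and 21.8 in 4D, 2.57 and 28.0 in 4A and 21.6 and 27.1 in WT. It stood above 8.40% of the peaks in 4A replicate 1 and above 75.2% or more in the other lists. The region at its own promoter, chr1:113871548-113871913, scored 7.03, 7.49 and 8.29 in the replicate 2 lists of 4D, 4A and WT and was in no replicate 1 list. PTPN21, a phosphatase with a FERM domain, was called through chr14:88562929-88563537, 7.92 kb upstream and 0.138 kb from an end of ZC3H14, with scores of 4.68 and 20.3 in 4D, 21.1 and 23.4 in 4A and 18.3 and 35.8 in WT. PTPN9 (MEG2, named for megakaryocytes) was called through chr15:75453885-75455215, 8.04 kb beyond its 3′ end and 1.53 kb from SIN3A. It scored 1.54 and 5.03 in 4D, 4.09 and 6.94 in 4A and 3.20 and 10.9 in WT, the lowest of these regions in every library but 4A replicate 1, where the PTPN22 region was lower.

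Receptor genes with a region of all 6 libraries within 10 kb of an end were PTPRA and PTPRN, each through a region nearer to a neighbour. PTPRA, which activates SRC family kinases, had chr20:3045223-3046699, 6.55 kb beyond its 3′ end with the summit 0.065 kb from an end of GNRH2. Its scores were 17.0 and 124 in 4D, 24.7 and 118 in 4A and 37.4 and 130 in WT, above 82.9% or more of the peaks of each list. A second region upstream of PTPRA, chr20:2859415-2859668, was in both 4D libraries (15.3 and 4.24), in 4A replicate 1 (12.8) and in WT replicate 2 (5.03). PTPRN (IA-2), a phosphatase-like protein of secretory granules that lacks catalytic activity, had chr2:219278987-219279903, 9.72 kb beyond its 3′ end and 0.164 kb from DNAJB2. It scored 21.9 and 35.2 in 4D, 18.3 and 86.2 in 4A and 38.4 and 75.3 in WT.

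Within the long receptor genes, 3 more regions of all 6 libraries lay farther than 10 kb from an end. PTPRC (CD45), the receptor phosphatase of leukocytes that activates SRC family kinases, had chr1:198669131-198669421, 30.4 kb from its start. It scored 8.76 and 15.2 in 4D, 8.93 and 23.5 in 4A and 9.02 and 20.9 in WT, above 43.3% to 76.9% of the peaks of the 6 lists. Another region of PTPRC, chr1:198681885-198682102, scored 29.6 in 4D replicate 2, 18.5 and 32.3 in 4A and 33.8 and 21.2 in WT, and was missing from 4D replicate 1. PTPRJ, the CD148 of platelets, had chr11:48005806-48006893, 25.2 kb from the nearer end, with scores of 18.6 and 34.2 in 4D, 9.56 and 52.8 in 4A and 23.5 and 45.0 in WT. PTPRU, a receptor of the cell adhesion type, had chr1:29283058-29283657, 43.1 kb from the nearer end, with scores of 7.93 and 33.8 in 4D, 4.60 and 25.8 in 4A and 28.6 and 34.9 in WT. The PTPRU region stood above 51.3% and 85.5% of the peaks of the 4D lists, 23.3% and 79.0% in 4A and 86.7% and 85.5% in WT.

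DUSP10 and DUSP6 were the MAP kinase phosphatases with a region of all 6 libraries. DUSP10 (MKP5), which acts on JNK and p38, had a pair of them. The one in its 3′ part, chr1:221707977-221708547, scored 30.5 and 96.0 in 4D, 12.5 and 126 in 4A and 16.4 and 92.8 in WT. It stood above 95.0% and 97.9% of the peaks of the 4D lists, 65.5% and 98.9% in 4A and 68.5% and 97.5% in WT. The one just upstream of its start, chr1:221742098-221743337, scored 5.51 and 17.7 in 4D, 5.87 and 15.6 in 4A and 14.1 and 15.9 in WT. No other protein-coding gene had an end within 10 kb of either. DUSP6 (MKP3), the cytoplasmic phosphatase of ERK, had chr12:89353486-89354379, 0.985 kb upstream of its start, near the readthrough gene POC1B-DUSP6 too. It scored 4.46 and 18.3 in 4D, 6.02 and 17.4 in 4A and 12.8 and 30.8 in WT. Its standings were 25.3% and 69.9% in 4D, 34.7% and 68.5% in 4A and 58.2% and 82.9% in WT, where the lists are also the longest of each replicate number.

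DUSP7, another cytoplasmic ERK phosphatase, was called in all 6 libraries, but through different regions. The region over its start, chr3:52056569-52057557, scored 36.4 in 4D replicate 2, 7.64 and 40.4 in 4A and 11.9 and 30.9 in WT. In 4D replicate 1 the gene was called through chr3:52052813-52053249 alone, which scored 3.94 there. DUSP1 (MKP1), the nuclear phosphatase induced as an immediate early gene, had 5 regions, all in replicate 2 lists. The one nearest upstream of its start, chr5:172771944-172772702, 0.749 kb away, scored 11.2 in 4D, 9.35 in 4A and 24.3 in WT. DUSP16, DUSP4 and DUSP5 were likewise called in replicate 2 of all 3 lines and in no replicate 1 list. DUSP2, DUSP8 and DUSP9 had no region in any library, in the gene or within 10 kb of it.

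The atypical DUSP genes with a region of all 6 libraries were DUSP28 and DUSP15. DUSP28 had chr2:240560171-240561447, which began 0.117 kb inside the gene and lay over the second of its listed starts, with scores of 19.3 and 56.8 in 4D, 21.3 and 69.5 in 4A and 27.1 and 43.2 in WT. A second one, chr2:240565679-240566707, began 0.423 kb beyond its 3′ end and scored 18.6 and 41.4 in 4D, 22.1 and 94.6 in 4A and 39.5 and 66.3 in WT. Both stood above 84.2% or more of the peaks of each list. DUSP15 was called through chr20:31835452-31838346, 7.25 kb beyond its 3′ end and 1.64 kb from MYLK2. It had the highest replicate 2 scores among these regions, 147 in 4D, 133 in 4A and 136 in WT, with 17.3, 29.6 and 24.8 in the replicate 1 libraries of 4D, 4A and WT.

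**Figure D3:**
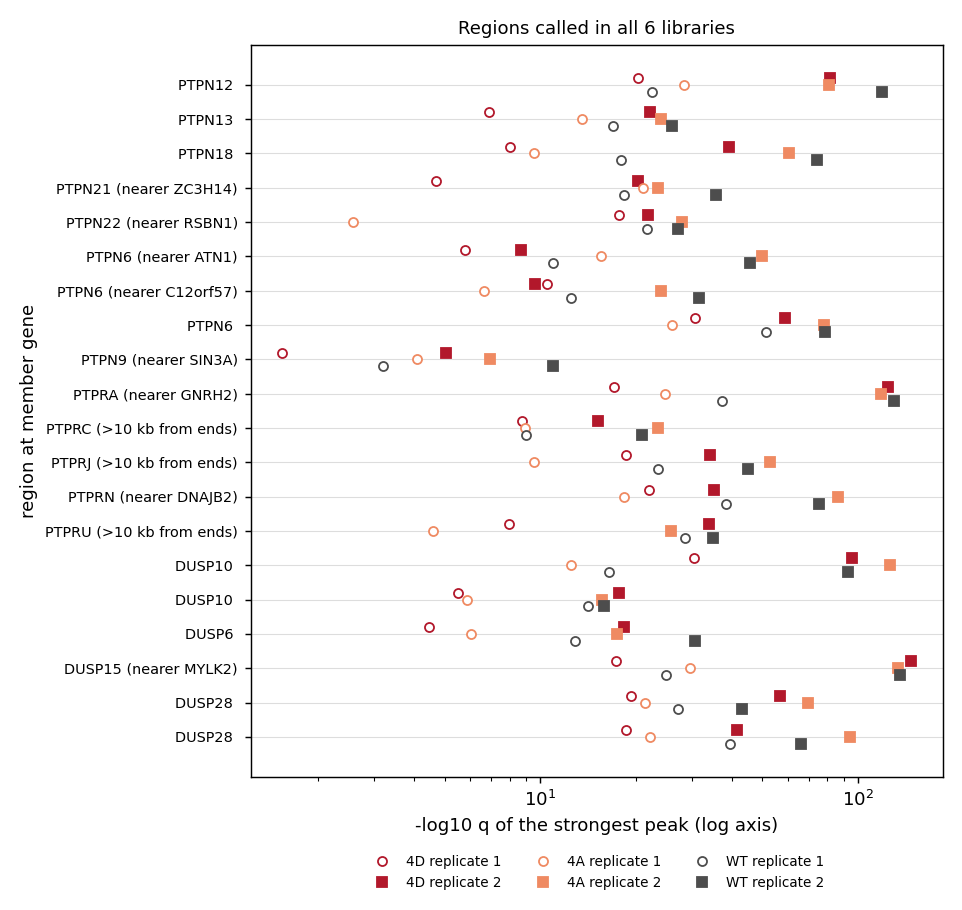
The −log10 q of the strongest peak (log axis) in each library for the 20 regions called in all 6 libraries in or within 10 kb of a member, with 4D, 4A and WT offset downward in each row. Open circles are replicate 1 and filled squares replicate 2. Labels in brackets give the gene whose end is nearer to the summit, or mark regions farther than 10 kb from a gene end. Most rows have their squares to the right of their circles, and PTPN9 sits lowest in every library but 4A replicate 1.

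Over the members, 17 regions of all 6 libraries lay within 10 kb of an end, of which 9 had a summit nearest to the member and 8 a summit nearer to another gene. Counting a gene only where it is the nearest, 7 of the 63 members were called in all 6 libraries (PTPN12, PTPN13, PTPN18, PTPN6, DUSP10, DUSP6 and DUSP28), or 11.1%, against 9.61% of all genes. By this count the members lay near the background. The regions resembled others of the series in strength and in the spread of their summits between libraries. For each region the lowest standing over the 6 lists was taken, and its median over the 20 member regions was above 47.9% of peaks (range 1.97% to 88.4%), against 50.1% for all regions of all 6 libraries. Summits of the 6 libraries spread over a median of 128.5 bp (47 to 1180), against 107 bp.

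In all, 96 regions of the 6 lists lay within 10 kb of a member's end. Of these 17.7% were called in all 6 libraries, against 12.3% of the 16807 regions near any protein-coding gene end. In no replicate 1 list were 64 of them, or 66.7%, against 69.4% near any gene end. Called in all replicate 2 lists and no replicate 1 list were 23, or 24.0%, against 24.3%. Most phosphatase regions thus rest on the longer replicate 2 lists, as regions do near other genes.

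RUNX1-4D was compared with WT first. Between these sets 7 members were called in WT and not in 4D: PTPN4, PTPN23, PTPRG, DUSP22, DUSP3, PTPN2 and DUSP18. That is 11.1% of members, against 8.19% of all genes. DUSP14 alone was called in 4D and not in WT, where all genes gave 2.19%. Each of the 7 was called in 4D replicate 2 and was missing from 4D replicate 1, the shortest list of the series, so no member was called in both WT libraries and neither 4D library.

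PTPN2 (TC-PTP), a phosphatase of JAK and STAT proteins, had a region over its start, chr18:12883482-12884292, that scored 2.90 in 4D replicate 2, 5.55 and 8.91 in 4A and 14.4 and 7.05 in WT. It stood above 62.9% of the peaks of WT replicate 1 and above 9.68% to 46.2% in the other lists that held it. PTPN4 (MEG1, named for megakaryocytes like MEG2) had one over its start, chr2:119759334-119760213, with 23.5 in 4D replicate 2, 26.2 in 4A replicate 2 and 12.3 and 33.2 in WT. DUSP3 (VHR), which dephosphorylates ERK and JNK and acts in platelets, had one inside the gene, chr17:43773289-43773703, with 22.5 in 4D replicate 2, 48.8 in 4A replicate 2 and 6.69 and 38.2 in WT. At PTPN4 and DUSP3 the replicate 1 lists of both mutants had no region.

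PTPN23 (HD-PTP), which takes part in endosomal sorting, had chr3:47375037-47375535, 5.49 kb upstream, with 9.29 in 4D replicate 2, 10.9 in 4A replicate 2 and 6.56 and 11.8 in WT. DUSP18 had chr22:30672984-30673516, 5.11 kb upstream, a region whose summit was nearer to an end of SLC35E4 (4.27 kb). It scored 68.1 in 4D replicate 2, 25.0 in 4A replicate 2 and 3.94 and 58.0 in WT. It stood above 95.5% of the peaks of 4D replicate 2, 78.3% of 4A replicate 2 and 12.1% and 93.6% in WT. DUSP22, which acts on JNK signalling, had chr6:292029-292920 over its start, with 3.15 in 4D replicate 2, 1.80 and 8.03 in 4A and 2.89 and 3.68 in WT. These scores stood above 2.14% to 42.4% of the peaks of their lists.

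The receptor gene PTPRG was called in 4D replicate 2 only through chr3:61561284-61561524, which scored 1.63. The region that made it a member of the WT set, chr3:61570720-61571035, lay inside the gene 9.15 kb from its start and scored 14.2 and 24.2 in WT and 15.2 in 4A replicate 2. It was the only region in or around a member that was called in both WT libraries and neither 4D library, where 0.933% of all genes had such a region. No member had a region in both 4D libraries and neither WT library (all genes 0.160%). DUSP14 (MKP6) had a region over a listed promoter, chr17:37489440-37490450, with 29.4 in 4D replicate 2, 6.62 and 35.0 in 4A and 37.6 in WT replicate 2. A second one, chr17:37519331-37519747, lay 5.83 kb beyond its 3′ end, with a summit nearer to an end of SYNRG (4.78 kb). It scored 2.72 and 3.89 in 4D, 8.98 in 4A replicate 2 and 8.97 in WT replicate 2. DUSP14 was in the 4D set through this second region alone. The absence from the WT set thus came from WT replicate 1 alone.

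RUNX1-4A and WT differed at fewer members. In WT and not in 4A were PTPN4, PTPN23, PTPRG, DUSP3 and DUSP18, 5 members or 7.94%, against 7.01% of all genes. DUSP14 was in 4A and not in WT (all genes 3.25%). All 5 were called in 4A replicate 2. A region of PTPRD, a receptor best known from neurons, was called in both WT libraries and neither 4A library, at chr9:9585858-9586247 deep inside the gene. It scored 10.0 and 6.33 in WT and 10.7 in 4D replicate 2, and 0.454% of all genes had such a region. No member had a region in both 4A libraries and neither WT library (all genes 0.359%).

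Between the mutants, no member was in the 4D set and not in the 4A set, where 3.94% of all genes were. DUSP22 and PTPN2 were in the 4A set and not in the 4D set, or 3.17% of members, against 6.18% of all genes. No member had a region in both libraries of one mutant and neither of the other, where all genes gave 0.414% for 4D and 1.06% for 4A.

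Length matters most for the receptor genes, whose median length was 190 kb, against 91.0 kb for the non-receptor genes, 11.3 kb for the MAP kinase phosphatases and 14.8 kb for the atypical DUSP genes. Of the 20 receptor genes, 18 fell in the 2 longest length classes and 13 in the longest. With the whole gene body and 10 kb around it, 5 receptor genes were called in the 4D set, 5 in the 4A set and 8 in the WT set. No share of genes of the same length classes was computed for the receptor genes under this wider rule. Over all members the wider rule gave 18 (28.6%) in 4D, against 23.0% of all genes, and 20 (31.7%) in 4A, against 25.6%. In WT it gave 26 (41.3%), against 29.2%, and in all 6 libraries 16 (25.4%), against 17.1%. Genes of the same length classes gave 24.8% in 4D, 27.6% in 4A, 31.0% in WT and 18.2% in all 6 libraries, so the members' share was 1.15, 1.15, 1.33 and 1.40 times theirs.

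Per length, regions were sparse inside the receptor genes. Their 8.78 Mb held 3 regions of the 4D set, 5 of the 4A set and 10 of the WT set, or 0.0342, 0.0570 and 0.114 per 100 kb. At the density of all genes of the same length classes these would be 0.128, 0.147 and 0.160 per 100 kb. By library the receptor genes held 3 and 30 regions in 4D, 7 and 27 in 4A and 10 and 32 in WT, so the replicates differed more than the lines. Inside all members the density was 0.101 per 100 kb in 4D, 0.137 in 4A and 0.211 in WT, against 0.171, 0.196 and 0.219 for genes of the same length classes. Without the members longer than 500 kb it was 0.257, 0.350 and 0.490, so the values depend on the few longest receptor genes. The longest class spans 152 to 2474 kb and matches the length of those genes only loosely. Non-receptor genes had 0.298, 0.298 and 0.476 per 100 kb, against 0.236, 0.268 and 0.304.

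**Figure D4:**
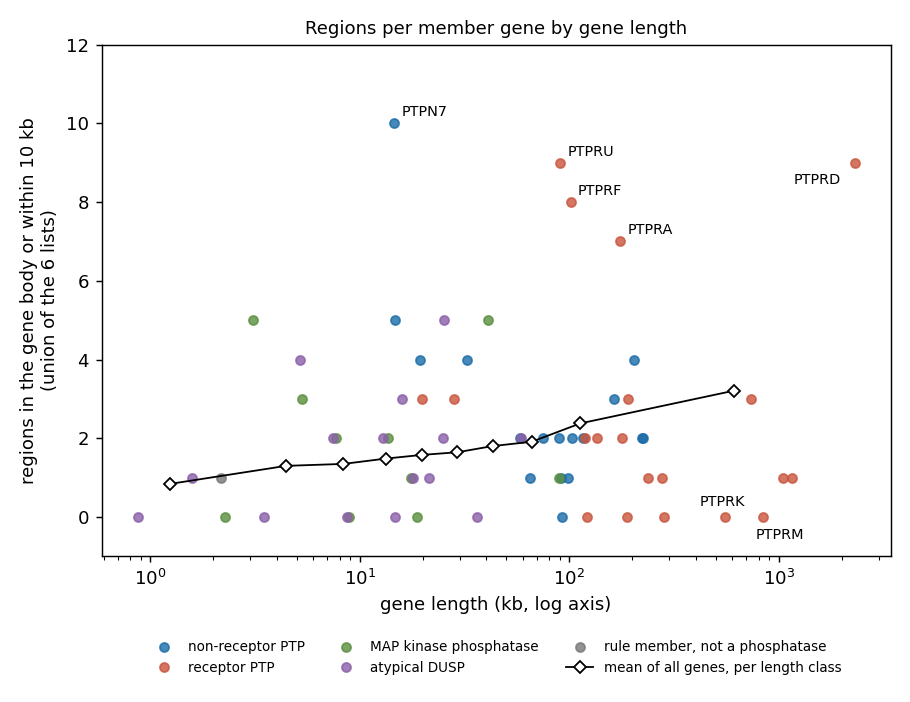
Number of regions of the union of the 6 lists in the gene body or within 10 kb of it (vertical axis), by gene length in kb (horizontal log axis), 1 point per member coloured by role. Diamonds joined by a line give the mean of all protein-coding genes in each of the 10 length classes. PTPN7 has 10 regions at 14.6 kb, and PTPRK and PTPRM have none at over 500 kb.

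PTPN7 (HePTP), a phosphatase of ERK and p38 in blood cells, had the most regions of any member, 10 over a span of 22850 bp, or 28.9 per 100 kb of the gene with its flanks. Only 1.16% of protein-coding genes had 10 or more. All were in replicate 2 lists, 2 of them in 4D and most in 4A and WT. The strongest in 4A and WT, chr1:202162066-202162715, 0.478 kb upstream, scored 5.55 in 4D, 21.0 in 4A and 29.4 in WT. PTPRU and PTPRD had 9 regions each, PTPRF (LAR) 8 and PTPRA 7. In PTPRD, spread over 2299 kb, that came to 0.388 per 100 kb. After PTPN7 the densest were DUSP1 with 21.6 per 100 kb, DUSP28 with 15.9, PTPN6 with 14.4 and DUSP6 with 11.9.

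Members known from blood cells and platelets were read as a list of 13. The list was chosen with earlier results of these data known, and its shares were not weighted for gene length or tested. It had 5 genes in the 4D set, 6 in the 4A set and 7 in the WT set, or 38.5%, 46.2% and 53.8%, beside 19.7%, 22.0% and 25.7% of all genes, and 5 with an end region of all 6 libraries (PTPN12, PTPN18, PTPN22, PTPN6 and PTPRA), beside 14.6% of all genes. PTPN22 and PTPRA were among them only through the regions nearer to RSBN1 and GNRH2. With gene bodies PTPRC and PTPRJ joined the list, which made 7 of 13, beside 17.1% of all genes. The remaining members of the list were PTPN2, DUSP3 and PTPN7, described above, and PTPN1, PTPN11 and PTPRE. PTPN1 (PTP1B), the phosphatase anchored at the endoplasmic reticulum, had a region over its start in 4A replicate 2 alone (4.79) and one inside the gene in 4D replicate 2 alone (2.00). PTPN11 (SHP2), which carries growth factor signals to RAS and ERK, had a single region, 28.2 kb inside the gene, in WT replicate 2 alone (4.86). PTPRE had no region near an end, and one inside the gene, chr10:128054262-128054690, scored 9.14 in 4D replicate 2, 4.54 in 4A replicate 1 and 6.56 in WT replicate 2. Another inside it was in 4A replicate 2 alone (11.2).

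No region of any library lay within 10 kb of an end of 24 members, or 38.1%, the same share as among all genes (38.1%). They were PTPN3, PTPN11, PTPN20, PTPRB, PTPRC, PTPRD, PTPRE, PTPRJ, PTPRK, PTPRM, PTPRN2, PTPRO, PTPRQ, PTPRR, PTPRT, PTPRZ1, DUSP2, DUSP8, DUSP9, DUSP13A, DUSP13B, DUSP21, DUSP26 and DUSP29. Receptor genes made up 13 of them. Of the 24, 14 had none in the gene body either: PTPN20, PTPRB, PTPRK, PTPRM, PTPRR, PTPRZ1, DUSP2, DUSP8, DUSP9, DUSP13A, DUSP13B, DUSP21, DUSP26 and DUSP29. The share of all genes with no region in the body was not computed, so no background stands beside the 14. Receptors best known from brain, vessel wall and epithelium are among the 14. PTPRD, best known from neurons, had 9 regions inside the gene and PTPRF 8, so no tissue pattern was read from this list.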

How the data were processed

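Binding of HA-tagged RUNX1 was measured by CUT&RUN in HEL cells. The authors deposited 1 peak list per library, so peaks were called per library, on hg38 with MACS2 2.2.7.1, per the submitters' processing notes, which also name cutadapt 3.4, Bowtie2 2.4.2, Picard 2.25.6 and deepTools 3.5.1. Peak calling used the empty vector cells as background, per the series design. The sources used here do not say whether their replicates were pooled. Per peak the deposited lists give a score, a fold enrichment over background (a linear ratio) and the −log10 of the p-value and of the q-value, all made by the authors. Their lowest −log10 q, 1.30 to 1.41, lies close to q = 0.05. Read depth is unknown, and the 2 empty vector libraries were not analysed here.

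Peaks were merged into regions where they overlapped by at least 1 bp, and gene ends came from a RefSeq table of GRCh38.p14. A member was called through a region within 10 kb of either end, and shares of all 20033 protein-coding genes were weighted to the members' 10 length classes. Work was done in Python 3.11.15 with pandas 2.3.3, numpy 2.4.6 and matplotlib 3.10.9. In a test on simulated data, peaks were planted within 10 kb of an end of 200 genes. Of the planted calls 100.0% were recovered, and 0 of 500 genes differed from a direct search. This checks the code that finds regions near genes and gives no rate of false calls. Values are named for members with an end region of all 6 libraries, those whose call differs between lines or that have a region in both libraries of one line and neither of another, the blood and platelet list, and the 5 members with most regions or most per length. DUSP7, DUSP16, DUSP4, DUSP5 and the other members without regions are given to complete their class, chosen after their values were seen. The members, roles and lists were chosen with earlier results of these data known. Alternatives covered distance, thresholds, list length, overlap, membership, length classes and left-out replicates.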

Additional observations from a re-analysis of the deposited data

How the results depend on the processing

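Members called in 4D, 4A, WT and all 6 libraries were 15, 17, 21 and 13. Within 2 kb of a gene end they fell to 8, 11, 12 and 7, and within 50 kb they rose to 27, 30, 34 and 23. With all lists shortened to the 5358 peaks of the shortest, 4A had 10 and all 6 libraries 8. With windows of 100 bp around summits all 6 libraries had 7. Counting the nearest gene end only, an alternative chosen after seeing the data, gave 9 in 4D, 11 in 4A and 7 in all 6 libraries. Leaving out each replicate gave 15 to 36 members in 4D, 17 to 38 in 4A and 21 to 37 in WT, the higher numbers without replicate 1. Regions inside members came to 0.257, 0.350 and 0.490 per 100 kb in 4D, 4A and WT without members longer than 500 kb. They ranged from 0.101 to 0.586 in 4D, 0.156 to 0.614 in 4A and 0.211 to 0.687 in WT with a replicate left out. The other 50 values under the alternatives moved by at most 1.5 times. The ratios to genes of like length lay between 0.996 and 1.34 under their alternatives, and within 2 kb the 4D ratio of 0.996 left no excess of members, where it was 1.27 at 10 kb. PTPN6, DUSP10 and DUSP28 kept a region of all 6 libraries under all 10 alternatives tried for single members, PTPN9 under 4, PTPN22 under 5 and PTPN21 under 6. The number of libraries and their unknown depth limit what can be said of single regions, and the causes of these shifts beyond the number of peaks or genes counted were not tested. No paired analysis was possible because no result comes from a test that could take the replicate number as a block. Lines were set side by side within replicate numbers instead, and with the lists shortened within each number 15, 15, 18 and 11 members were called.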

Other observations

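Other genes of phosphotyrosine signalling gave the following values, with the same background shares of all genes (19.7% in 4D, 22.0% in 4A, 25.7% in WT and 14.6% in all 6 libraries). Among 26 other cysteine-based or related phosphatases, 11 were called in the 4D set, 11 in the 4A set and 13 in the WT set. A region of all 6 libraries lay at 7 of them, namely PTP4A2, CDC25A, SSH1, SSH2, SSH3, STYX and UBASH3B. The slingshot phosphatases SSH1, SSH2 and SSH3, which activate the actin-severing protein cofilin, were thus all included. Among 20 proteins that dock SHP1 or SHP2, 5, 6 and 6 were called in 4D, 4A and WT, and MPIG6B, CD72, SIT1, PECAM1 and CD33 had a region of all 6 libraries. MPIG6B (G6b-B) and PECAM1 are inhibitory receptors of megakaryocytes and platelets. Of 11 SRC family kinases and their regulators, 3 were called in 4D, 7 in 4A and 5 in WT, with 3 and 9 in the 4D libraries, 7 and 11 in the 4A libraries and 5 and 10 in the WT libraries (replicate 1, then replicate 2). FGR, FYN and CSK had a region of all 6 libraries. These lists are small, and their shares were not tested.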
